A study of Oryza sativa Japonica Group with 6 samples.

Results

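Long non-coding RNAs (lncRNAs) that overlap annotated genes of rice were described by their class code. Class j marks a transcript that shares a splice junction with a gene, class o a transcript that overlaps its exons in another way, and class i a transcript that lies inside an intron. The members were all rows of the authors' deposited lncRNA table with these codes, joined by locus to the expression table. They came to 76 rows of 66 loci, out of 578 rows of 532 loci. Class j held 28 rows of 20 loci, class o 17 rows of 15 loci and class i 31 rows of 31 loci. Intergenic lncRNAs (class u, 360 rows) and antisense lncRNAs (class x, 138 rows) served for comparison, and no member locus also carried a row of those classes. The members lay on all 12 chromosomes.

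RNA was measured in endosperm of NingJing1, a Japonica cultivar, 10 days after pollination. The plants of both groups grew in the field until booting and were then kept in growth chambers. High temperature meant 36 °C by day and 33 °C by night (n = 3 samples), and normal temperature meant 28 °C and 25 °C (n = 3). Values are FPKM, which is fragments scaled to transcript length and to the mapped total of the library, so levels can be compared between transcripts. Whether the 3 samples of a temperature are different plants is not stated in the labels, and the p-values therefore cover only the variation among these samples. Read depth is unknown.

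Transcripts of this kind can be other forms of the gene they overlap, pieces of its unspliced RNA, or separate transcription units. Those inside introns can also be copies of a repeated sequence that the host gene has taken up. LncRNAs in plants are also studied as decoys or targets of microRNAs, which bind through complementary bases and, in plants, usually need pairing along most of their length. The endosperm fills with starch during this period, and heat at grain filling is known for chalky grain.

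The label "sense" was not checked against the strand of the overlapped genes. All class j and class o rows had a strand. In class i, 19 of 31 rows (61.3%) had no strand in the deposited table, so it cannot be read whether these lie in the sense direction of their host gene. In all 19 the length equalled the distance from start to end, as in a transcript of 1 exon. The annotated genes that the members overlap were not analysed here, so for rows with a strand the direction rests on the class code. No genome build is given in the sources used here.

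Intronic loci MSTRG.21080, MSTRG.17243 and MSTRG.4507 carried sequence runs that recur in intergenic lncRNAs elsewhere in the genome. The sequences below are fragments of the lncRNAs as listed in the authors' deposited table of microRNA pairings, 5′ to 3′, and they are shown because the loci that carry them had the same temperature pattern. Capitals mark a run of 16 bases found in both loci of a pair, in the same direction or as its reverse complement. Gaps of the listed alignments were removed.
MSTRG.21080 (class i, chromosome 9): cuGCAAAUUCGGAUUCGUuuu
MSTRG.17243 (class i, chromosome 6): ACGAAUCCGAAUUUGCagcaaa
MSTRG.21080 and MSTRG.4507 (class i, chromosome 11): uacgCGCGACUUAUCCGGUU
MSTRG.17243 and MSTRG.9373 (class u, chromosome 3): AAGUCGCGCGUAACUUauccgga
MSTRG.4507 and MSTRG.20159 (class u, chromosome 8): acucuguaCUGCGCCGUCGCUCGU
MSTRG.21080 and MSTRG.3695 (class u, chromosome 10): aguuuUGUUUUGCUGCAAAUUc
The first pair of lines shows the same run in opposite directions. Neither locus has a strand in the table, so the direction is only that in which the table lists it.

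A second set of fragments is shown because it recurs among intronic members as sites listed for osa-miR1436. In the microRNA, capitals mark the seed, bases 2 to 8. In the sites, capitals mark bases that pair neither by Watson-Crick rules nor as G:U.
osa-miR1436: aCAUUAUGggacggagggagu
MSTRG.14643 (class i): acuuccuccguuucauaaugu
MSTRG.21360 (class i): acucccuccAuuccauaauAu
MSTRG.14494 (class i): acucccuccguuucauaUuAu
MSTRG.15251 (class i): auuuucuccguuucaCaaugu
MSTRG.4929 (class o): acuuccuccgucccaAaauAC
The site of MSTRG.14643 paired at 18 bases by Watson-Crick rules and at 3 as G:U, with 0 unpaired. This was the only member site of the set with no unpaired base. MSTRG.15251 has no strand in the table.

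Tissue identity was checked on marker mRNAs. Summed FPKM of 5 starchy endosperm markers was 36038 to 36578 in high and 20861 to 20910 in normal temperature. The storage glutelins GLUB4 and GLUB5 carried this sum. GBSSI and BEIIb, which build starch, and the prolamin PROL13c were lower in every high than in every normal sample, GBSSI at 442.5 to 525.5 against 1347 to 1442 FPKM. The sum of 3 embryo and aleurone markers was 805.2 to 840.2 in high and 113.6 to 611.0 in normal temperature. Within it the oleosin gene OLE16b (LOC_Os04g46200), which coats oil bodies of embryo and aleurone, stood at 569.1 FPKM in normal sample 2 against 112.2 and 74.3 in samples 1 and 3. CAB2R (LOC_Os01g41710), a chlorophyll-binding protein of green tissue, was at 33.3 to 38.9 in high and 70.7 to 78.0 in normal temperature. These levels differ between the groups, and their part in the results on lncRNAs was not tested. In bulk tissue, fewer cells of a type and less RNA per cell cannot be told apart.

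The classes differed in build. Class j transcripts were the longest, with a median length of 1122 bases (quartiles 815.3 and 1677), against 569 bases in class o (382 and 804) and 485 bases in class i (290.0 and 1163). The median over all lncRNA rows was 511 bases. Class o transcripts were short but stretched over long distances. Their median distance from start to end was 6157 bases, of which a median of 11.1% was in the transcript. In class j that distance was 2510 bases with 46.4% in the transcript, and in class i it was 557 bases with 100%. Antisense lncRNAs covered a median distance of 1425 bases with 42.4%.

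The extremes were all single loci. MSTRG.19346 (class o, chromosome 8, 3125102 to 3169325, plus strand) had 424 bases spread over 44224. MSTRG.2019 (class o, chromosome 1, 32053648 to 32078042, minus strand) was the shortest class o row, with 205 bases over 24395. The longest class o row was MSTRG.10950 with 4067 bases. Class j ranged from 372 bases, in MSTRG.21815 and in 1 transcript of MSTRG.5602, to 5949 bases in MSTRG.5619. Class i ranged from 216 bases in MSTRG.8823 to 2909 bases in MSTRG.21107. Intronic rows without a strand had a median length of 379 bases, against 1003 bases in the 12 with a strand.

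**Figure D1:**
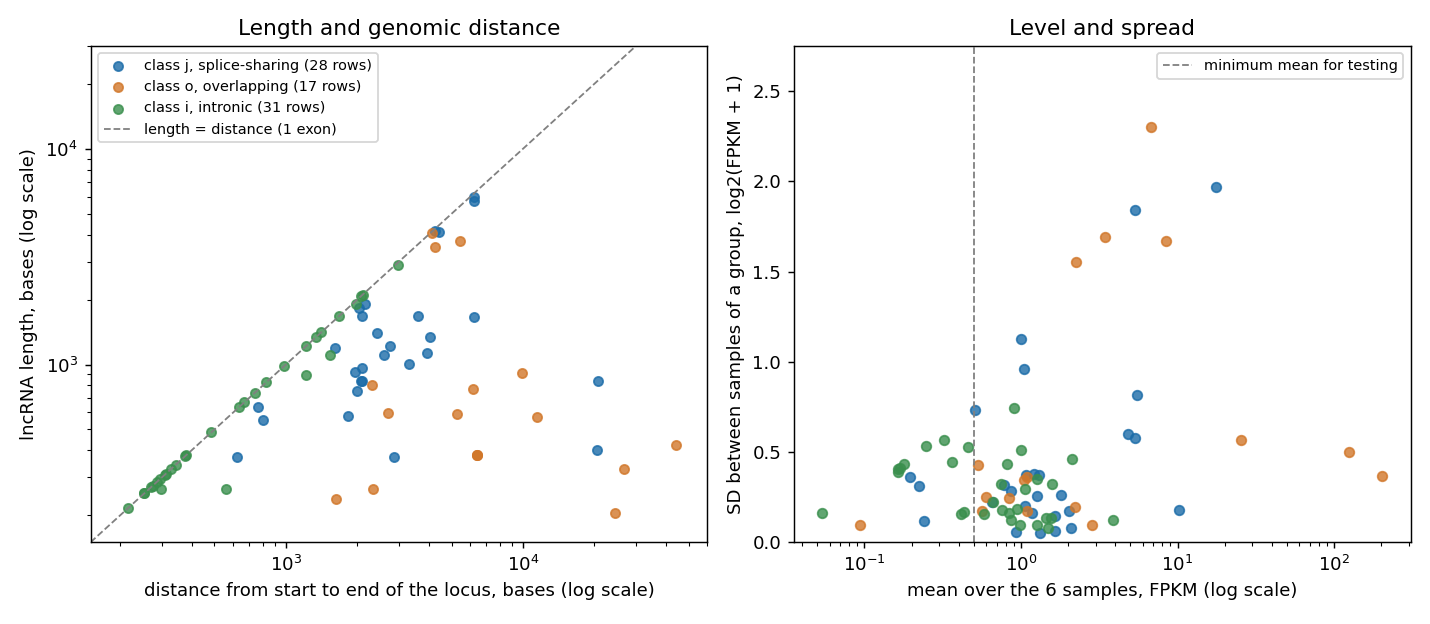
Length against genomic distance (left, both axes logarithmic, bases) and within-group SD on the log2(FPKM + 1) scale against mean FPKM (right, logarithmic x axis) for the 76 rows, 1 point per row, coloured by class. Most class i points lie on the line where length equals distance, most class o points well to its right, and the rows with an SD above 1.5, all of class o or j, have mean levels over 2 FPKM.

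Levels were low in all 3 classes and lowest in introns. The median of the mean FPKM over the 6 samples was 2.22 in class o, 1.25 in class j and 0.813 in class i, against 0.898 over all lncRNA rows. With the highest row of each locus alone, the median of class o was 1.1 and that of class j 1.31, so the order of these 2 classes turned. A mean of 10 FPKM was reached by 3 class o rows, 2 class j rows and no class i row. Intronic rows were listed at 0 in at least 1 sample in 14 of 31 cases (45.2%), against 28.9% over all lncRNA rows. Since 0 may stand for an estimate that failed, it is not read as absence.

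In class i, 5 rows were above 0 in only 1 sample. MSTRG.802 was listed at 1.48 FPKM in high sample 2 and at 0 elsewhere. MSTRG.6412 was at 1.01 FPKM in the same sample alone. MSTRG.10785, MSTRG.10985 and MSTRG.14494 were each above 0 in a single other sample, at 1.08, 0.99 and 0.32 FPKM. These rows count in the medians and sums of class i, and none was tested between the temperatures.

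The most abundant members were class o transcripts. MSTRG.5998 (chromosome 12, 9739100 to 9741438, plus strand, 265 bases) was at 297.7, 164.9 and 170.8 FPKM in high and at 231.8, 175.1 and 183.4 FPKM in normal temperature. The groups overlapped, with a log2 fold change of 0.06 (SE 0.30, limma, adjusted p = 0.902). MSTRG.13723 (chromosome 4, 32152776 to 32154409, minus strand, 237 bases) followed, and it is described with the changed rows. In class i the most abundant was MSTRG.18501, with a mean of 3.89 FPKM, then MSTRG.9118 and MSTRG.11203 with 2.11 and 1.59 FPKM.

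Summed over its rows, class i stood lower in high temperature. Its FPKM sum was 17.9, 19.0 and 19.1 in the high and 34.1, 37.9 and 38.2 in the normal samples, so the groups did not overlap. Of the class i sums in normal temperature, MSTRG.18501 alone made up 7.31 to 8.41 FPKM. The sum over all lncRNA rows was lower too, at 9005, 11574 and 8696 in high against 15913, 21774 and 18705 in normal temperature. A single class u row with a mean of 9945 FPKM carried much of that total. The class i share of it overlapped, at 0.198%, 0.164% and 0.220% in high and 0.214%, 0.174% and 0.204% in normal temperature. The sum of class j was 82.6, 78.0 and 81.4 in high and 69.0, 41.9 and 84.3 in normal temperature. That of class o was 387.6, 432.8 and 269.9 in high and 370.2, 462.2 and 398.1 in normal temperature. In classes j and o the groups overlapped.

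Over all rows, tested or not, spread between samples of a group was similar in size across classes. The median SD on the log2(FPKM + 1) scale was 0.30 in class j, 0.36 in class o and 0.29 in class i, against 0.25 over all lncRNA rows. As a coefficient of variation of FPKM the medians were 42.8%, 38.2% and 46.2%, which puts class i highest and class o lowest. Among rows with a mean of at least 0.5 FPKM the classes were less alike. Their median SD was 0.29 in class j, 0.37 in class o and 0.18 in class i, against 0.23 over all lncRNAs. The coefficients of variation of those rows were 36.9%, 37.9% and 35.4%, with class o highest and class i lowest. Between length and level, Spearman's rho over loci with 1 row was 0.03 in class j (n = 15), -0.35 in class o (n = 14) and 0.05 in class i (n = 31). These correlations are descriptions over loci that share the same 6 libraries.

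High sample 2 set the spread of several class o rows. Among the 15 class o rows that reached 1 FPKM, this sample was the highest of the 6 and at least 2 times the next in 5 (33.3%), in loci MSTRG.128, MSTRG.2019 and MSTRG.6417, and no other sample was in any class o row. In class j it held this place in 0 of 26 rows and in class i in 2 of 28. Among the other lncRNAs it did so in 17 of 460 rows (3.70%), and the other samples in 0.87% to 2.39%.

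The rows in question were far apart in that sample. MSTRG.2019 was listed at 0, 30.6 and 0 FPKM in high and at 3.33, 6.69 and 0 FPKM in normal temperature. MSTRG.6417 was at 0.54, 19.7 and 0 FPKM in high and at 0, 0 and 0.51 FPKM in normal temperature. Row 3 of MSTRG.128 was at 0.76, 41.4 and 7.02 FPKM in high and at 0.17, 1.22 and 0.11 FPKM in normal temperature. Its log2 fold change of 2.57 (SE 1.1) was the highest of class o and did not pass the test (limma, adjusted p = 0.137). Without high sample 1 it passed at adjusted p = 0.03.

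Whether lncRNAs differed between the temperatures was tested across the 455 lncRNA rows with a mean of at least 0.5 FPKM, of which 61 were members (25 of class j, 16 of class o and 20 of class i). The other 15 members were below that level and were not tested. Fold changes are high against normal temperature on the log2(FPKM + 1) scale, where changes of low rows come out too small, and a row passed at a Benjamini-Hochberg adjusted p under 0.05 from limma. Over all lncRNAs 27.3% of tested rows passed, 11.6% higher and 15.6% lower in high temperature.

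In class j, 7 of 25 rows (28%) rose, from 5 loci, and 0 fell. Counted in either direction the share is near the 27.3% over all lncRNAs. By direction, 11.6% of all tested lncRNA rows rose and 15.6% fell. Of the 7 class j rows, 3 are transcripts of the same locus. With FPKM summed per locus, 4 class j loci passed. At an unadjusted p under 0.05 (limma) there were 10 of the 25 class j rows, in either direction, against 181 of 455 over all lncRNAs. In class o, 0 of 16 rows rose and 1 fell (6.25%), with 3 at an unadjusted p under 0.05. In class i, 1 of 20 rows rose and 6 fell (35%). The difference in counts between the classes was not tested.

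Median log2 fold changes were close to 0 in every class. They were -0.02 in class j, 0.03 in class o and -0.05 in class i, against -0.10 over all tested lncRNA rows. The range was from -1.52 to 2.41 in class j, from -1.43 to 2.57 in class o and from -2.99 to 0.77 in class i. The medians of classes j and i changed sign under some other scalings of the samples. That of class o stayed above 0 under these scalings and changed sign under some other settings. Groups that did not overlap were seen in 44% of class j rows, 25% of class o rows and 50% of class i rows, against 45.3% over all lncRNAs.

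**Figure D2:**
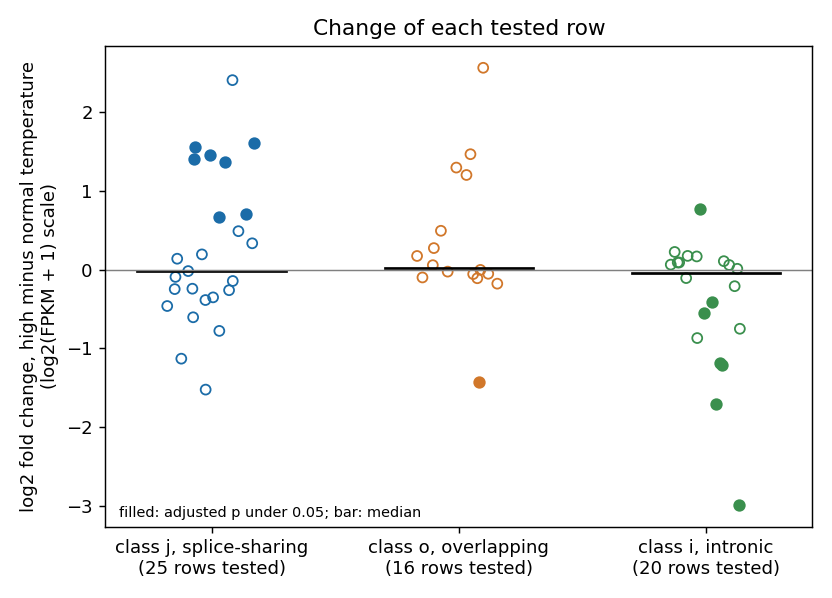
Log2 fold change of each tested row on the log2(FPKM + 1) scale, high minus normal temperature, by class (25, 16 and 20 rows); filled points have an adjusted p under 0.05 and bars are medians. The 7 filled class j points lie above 0, and 6 of the 7 filled class i points lie below it.

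The clearest rise among splice-sharing lncRNAs was in MSTRG.19733 (chromosome 8, 11321661 to 11323763, plus strand), which has 5 rows. Row 1 was at 2.42, 2.46 and 2.62 FPKM in high and at 0.09, 0.18 and 0.16 FPKM in normal temperature, means of 2.50 ± 0.106 and 0.143 ± 0.0473 FPKM (SD, n = 3). The samples of each group lay close together and the groups far apart, with a log2 fold change of 1.61 (SE 0.09, limma, adjusted p = 7.53e-05). Row 2 was at 1.74, 1.76 and 1.88 FPKM in high and at 0, 0.09 and 0.08 FPKM in normal temperature (1.40, limma, adjusted p = 0.000208). Row 4 was at 1.81, 2.66 and 2.32 FPKM against 0, 0.17 and 0.13 FPKM (1.56, limma, adjusted p = 5e-04). These 3 rows rose together. Rows 3 and 5 were too low to be tested, and their groups did not overlap either. Summed over the 5 rows the locus held 7.25, 7.55 and 7.44 FPKM in high against 0.11, 0.45 and 0.39 FPKM in normal temperature, a log2 fold change of 2.69 (SE 0.14, limma on locus sums, adjusted p = 2.67e-05). Over all lncRNA loci summed this way, 27.9% of 423 passed.

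MSTRG.16564 (class j, chromosome 6, 13375436 to 13379380, plus strand, 1134 bases) was the most abundant member that rose. It was at 16.6, 13.5 and 15.3 FPKM in high and at 6.23, 5.04 and 4.46 FPKM in normal temperature, means of 15.1 ± 1.57 and 5.24 ± 0.902 FPKM (SD, n = 3). Every high sample was above every normal sample, with a log2 fold change of 1.37 (SE 0.19, limma, adjusted p = 0.00324).

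At MSTRG.5602 (class j, chromosome 12, 1567803 to 1568563, minus strand) 1 of 2 transcripts rose while the locus as a whole did not pass. Row 2 was at 3.60, 11.7 and 10.4 FPKM in high and at 2.34, 2.37 and 1.85 FPKM in normal temperature (1.46, SE 0.40, limma, adjusted p = 0.0398). Row 1 was at 6.80, 1.09 and 0.93 FPKM in high and at 6.66, 9.16 and 8.62 FPKM in normal temperature (-1.52, limma, adjusted p = 0.0907). High samples 2 and 3 had most of the locus in row 2, and high sample 1 had most of it in row 1, as the normal samples did. The sum of both rows was 10.4, 12.8 and 11.3 FPKM in high against 9, 11.5 and 10.5 FPKM in normal temperature (log2 fold change 0.14, limma, adjusted p = 0.56). Row 2 made up 34.6%, 91.5% and 91.8% of the locus in high and 26%, 20.6% and 17.7% in normal temperature. The shares did not overlap, and the exact permutation test, two-sided, gave p = 0.1, which is the smallest that 3 samples against 3 allow. Without high sample 1, row 1 fell by 2.18 on the log2 scale (limma, adjusted p = 0.00221).

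The other 2 class j rows that rose were low. MSTRG.3324 (chromosome 10, 9979004 to 9979801, minus strand) was at 1.23, 1.31 and 0.59 FPKM in high and at 0.33, 0.31 and 0.16 FPKM in normal temperature (0.67, SE 0.18, limma, adjusted p = 0.0365). MSTRG.21815 (chromosome 9, 22740518 to 22743373, minus strand) was at 2.20, 1.29 and 1.95 FPKM in high and at 1.1, 0.48 and 0.62 FPKM in normal temperature (0.70, SE 0.19, limma, adjusted p = 0.039). In both the groups were apart by little.

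In MSTRG.5619 the row that carried the signal differed among samples, and MSTRG.128 varied in its sum, and no row of either passed. Row 2 of MSTRG.5619 (class j, chromosome 12, 1768576 to 1774780, minus strand) was at 23.9, 22.0 and 20.7 FPKM in high and at 0, 1.15 and 37.7 FPKM in normal temperature. Its row 1 was at 1.04, 0.77 and 0.46 FPKM in high and at 28.9, 0.70 and 0.09 FPKM in normal temperature. Normal sample 1 had all of the locus in row 1, normal sample 3 nearly all in row 2, and normal sample 2 held little of either. Row 2 had the largest log2 fold change of class j, 2.41 (SE 1.3), and did not pass (limma, adjusted p = 0.214), except without normal sample 3 (3.98, limma, adjusted p = 0.0029). At MSTRG.128 (class o, chromosome 1, 1347885 to 1354306, plus strand), all rows together held 24.1, 117.0 and 32.8 FPKM in high against 11.5, 17.5 and 15.02 FPKM in normal temperature. The groups did not overlap, and the difference did not pass (1.59, SE 0.57, limma on locus sums, adjusted p = 0.0856). MSTRG.10344 (class j) was listed at 5.65 FPKM in normal sample 3, at 0.32 FPKM in high sample 2 and at 0 in the others.

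**Figure D3:**
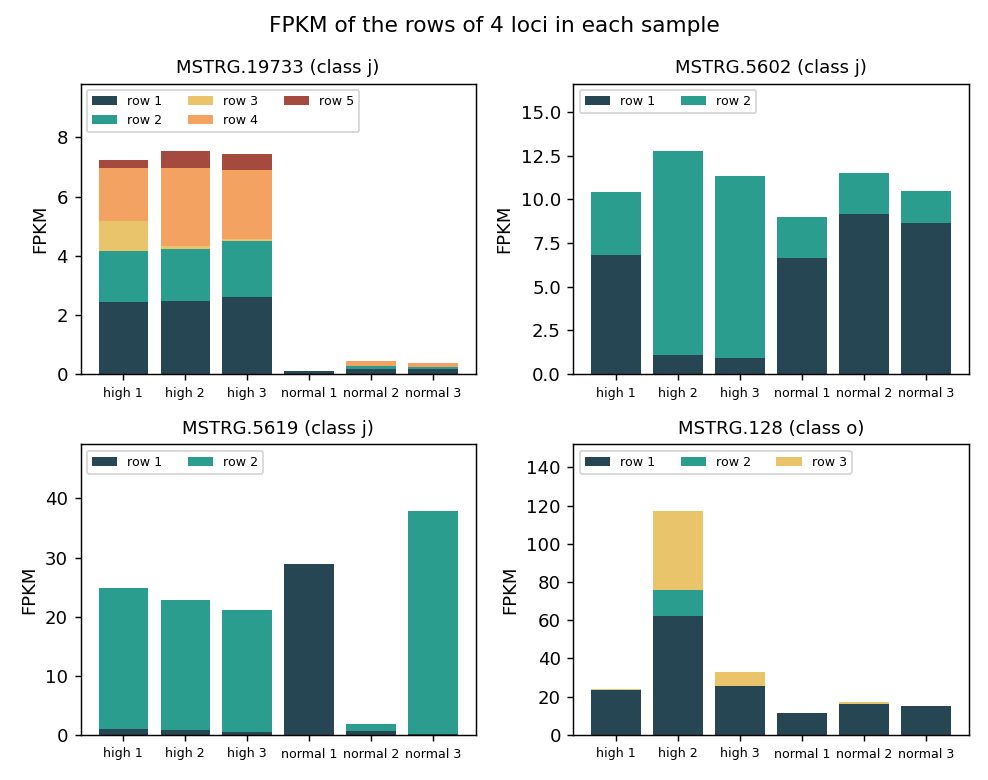
Stacked FPKM of the table rows of 4 loci in each of the 6 samples, with a separate y axis starting at 0 for each locus. MSTRG.19733 stands at 7.25 to 7.55 in high and at 0.11 to 0.45 in normal temperature, MSTRG.5602 keeps its sum while row 2 takes a larger share in high samples 2 and 3, MSTRG.5619 differs among normal samples, and MSTRG.128 peaks at 117.0 in high sample 2.

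The only class o row that changed was MSTRG.13723. It was at 56.0, 89.7 and 53.1 FPKM in high and at 114.2, 252.8 and 186.7 FPKM in normal temperature, means of 66.3 ± 20.4 and 184.6 ± 69.4 FPKM (SD, n = 3). The groups did not overlap, though the highest high sample came near the lowest normal one, with a log2 fold change of -1.43 (SE 0.38, limma, adjusted p = 0.0353). Without high sample 1, high sample 3, normal sample 2 or normal sample 3 the adjusted p was 0.0991, 0.111, 0.0942 and 0.101.

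Of the 6 intronic rows that fell, those with the largest changes were near 0 in high temperature. MSTRG.18501 (chromosome 7, 21711189 to 21711496, no strand, 308 bases) was at 0.08, 0.21 and 0 FPKM in high and at 7.31, 7.32 and 8.41 FPKM in normal temperature, means of 0.0967 ± 0.106 and 7.68 ± 0.632 FPKM (SD, n = 3). It had the largest change of any tested member, with a log2 fold change of -2.99 (SE 0.13, limma, adjusted p = 3.21e-05). It was also the only member locus with no listed microRNA pairing. MSTRG.4746 (chromosome 11, 10138981 to 10139359, no strand) was at 0.08, 0.19 and 0.22 FPKM in high and at 2.13, 1.78 and 1.25 FPKM in normal temperature (-1.21, SE 0.15, limma, adjusted p = 0.00176). In both rows every normal sample was above every high sample by several fold. MSTRG.8823 (chromosome 2, 30927035 to 30927250, no strand) was listed at 0 in all high samples and at 0.57, 0.83 and 1.18 FPKM in normal temperature, too low to be tested.

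Smaller changes were seen in 3 intronic rows. MSTRG.14643 (chromosome 5, 13478209 to 13478765, plus strand), the locus whose osa-miR1436 site has no unpaired base when G:U counts as paired, was at 0.27, 0.23 and 0.33 FPKM in high and at 0.84, 0.63 and 1.19 FPKM in normal temperature (-0.55, SE 0.15, limma, adjusted p = 0.0382). MSTRG.19658 (chromosome 8, 9197694 to 9199664, minus strand) was at 1.20, 1.08 and 1.12 FPKM in high and at 1.63, 1.83 and 2.05 FPKM in normal temperature (-0.41, SE 0.11, limma, adjusted p = 0.0355). These 2 were the only stranded intronic rows that fell. The only intronic row that rose was MSTRG.6108 (chromosome 12, 12581825 to 12582651, no strand), at 0.86, 1.65 and 0.80 FPKM in high and at 0.25, 0.14 and 0.25 FPKM in normal temperature (0.77, SE 0.18, limma, adjusted p = 0.0236). MSTRG.9118 was at 1.96, 0.47 and 1.63 FPKM in high and at 2.02, 2.64 and 3.96 FPKM in normal temperature, without passing (-0.75, limma, adjusted p = 0.134).

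The calls on low or close rows depended on single samples. For MSTRG.3324, leaving out any sample except high sample 3 gave adjusted p = 0.064 to 0.125. MSTRG.5602 row 2 passed only when no sample or high sample 1 was left out, and otherwise had adjusted p = 0.0797 to 0.114. For MSTRG.6108 the values without high sample 1, normal sample 2 or normal sample 3 were adjusted p = 0.0507, 0.0717 and 0.0579, and without high sample 2 its mean was too low to be tested. MSTRG.14643 lost its call without any of the high samples or normal sample 1 (adjusted p = 0.0822 to 0.0952), and without normal sample 3 it was too low to be tested. MSTRG.19658 lost it without any sample except normal sample 1 (adjusted p = 0.0773 to 0.103), and MSTRG.21815 without high samples 1 or 3 or normal samples 2 or 3 (adjusted p = 0.106 to 0.12). The calls on MSTRG.4507, MSTRG.4746, MSTRG.16564, MSTRG.18501, MSTRG.21080 and the 3 rows of MSTRG.19733 held without each sample in turn; all these values are from limma with Benjamini-Hochberg adjustment.

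**Figure D4:**
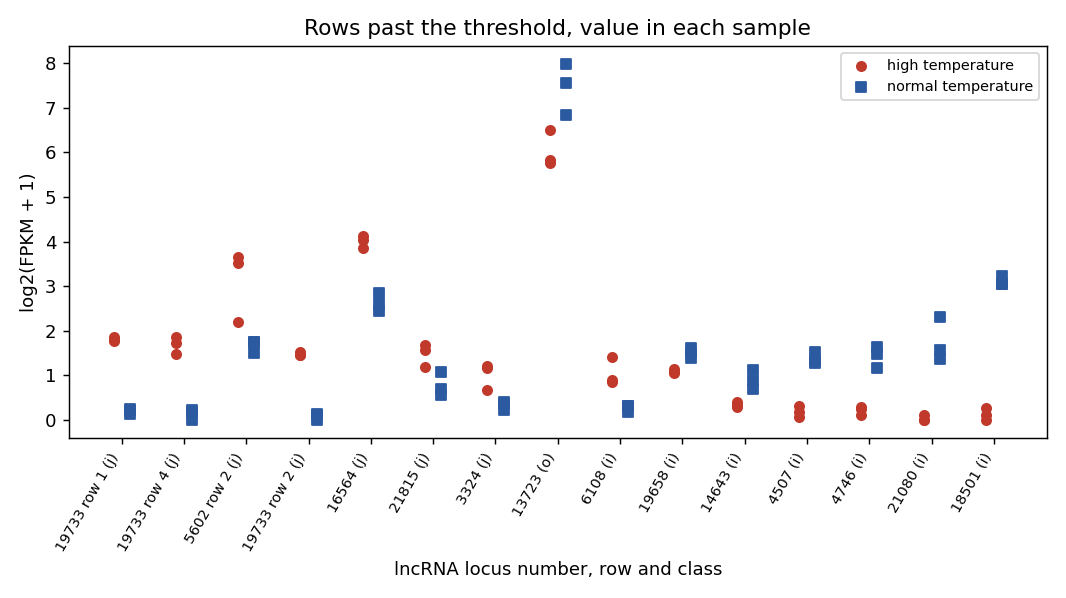
Value of each of the 15 rows past the threshold in every sample, on the log2(FPKM + 1) scale, circles for high and squares for normal temperature (3 samples each), ordered by class and fold change. High samples lie above normal ones in the 7 class j rows and in MSTRG.6108, and below them in the others.

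MSTRG.21080, MSTRG.4507 and MSTRG.17243, the intronic loci with the recurring runs printed above, belonged to the rows that were near 0 in high temperature. MSTRG.21080 (chromosome 9, 13034772 to 13035024, no strand, 253 bases) was at 0, 0 and 0.08 FPKM in high and at 1.57, 3.92 and 1.98 FPKM in normal temperature (-1.71, SE 0.25, limma, adjusted p = 0.00353). MSTRG.4507 (chromosome 11, 4173390 to 4173874, no strand, 485 bases) was at 0.24, 0.05 and 0.14 FPKM in high and at 1.43, 1.49 and 1.86 FPKM in normal temperature (-1.18, SE 0.12, limma, adjusted p = 0.00104). MSTRG.17243 (chromosome 6, 28423173 to 28423446, no strand, 274 bases) was at 0, 0 and 0.09 FPKM in high and at 0.53, 1.05 and 0.80 FPKM in normal temperature, too low to be tested.

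Starting from these loci, lncRNA loci were linked wherever their listed fragments shared a run of 16 bases on either strand. The group so reached held 11 loci, 3 of class i and 8 of class u, on 8 chromosomes. None had a strand, and all were 253 to 485 bases long with a length equal to the distance from start to end. High temperature values of these loci were 0 to 0.37 FPKM, with 18 of 33 listed at 0, and normal temperature values were 0.38 to 5.03 FPKM. In all 11 loci every normal sample was above every high sample, against 26.6% of tested lncRNA rows over all classes that lay apart in this direction. All 7 that could be tested fell, with log2 fold changes from -2.17 to -0.89 (limma, highest adjusted p = 0.0192). With high temperature values of at most 0.37 FPKM, a locus could reach the tested mean of 0.5 FPKM only through its normal temperature values. The filter thus fixed the direction of these 7 in advance, and their common fall adds no support. The other 4 were too low to be tested.

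The 8 intergenic loci of the group were likewise near 0 in high temperature. MSTRG.21109 was the highest, at 0, 0.08 and 0.08 FPKM in high against 2.33, 5.03 and 4.25 FPKM in normal temperature (-2.17, limma, adjusted p = 0.00104). MSTRG.4935 was at 0.06, 0.18 and 0.05 FPKM in high against 1.48, 4.44 and 2.91 FPKM in normal temperature (-1.78, limma, adjusted p = 0.00499). MSTRG.9373, which shares all 4 listed fragments of MSTRG.17243, was at 0, 0.19 and 0 FPKM in high against 1.46, 3.99 and 2.18 FPKM in normal temperature (-1.68, limma, adjusted p = 0.00485). Normal sample 2 was the highest of its group in 10 of the 11 loci, and normal sample 3 in MSTRG.4507. Normal sample 2 was also the normal sample with the high OLE16b level. The other embryo and aleurone markers were close across normal samples 1 to 3. RAB16A was at 27.23, 28.35 and 25.84 FPKM and VP1 at 12.97, 13.52 and 13.4 FPKM. OLE16b was at 648.8 to 678.9 FPKM in high temperature. A relation between marker levels and these loci was not tested.

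The group was linked after the values had been seen and was reached from a row that passed, so the likeness of its loci is a description. With runs of 14 bases it held 12 loci, of which all 8 tested fell, again under a filter that only normal temperature values could meet. Of the 3 other groups with at least 5 loci at 16 bases, none moved as a whole: in the largest, of 18 loci with 5 members among them, 3 loci lay apart as higher and 1 as lower. Some smaller groups did. In a group of 3 loci the 2 tested ones fell, and all had low means in high temperature, so the same limit of the filter holds. In some pairs of loci both fell, in a pair that holds a member both rose, and other pairs did not move together. The assignment of reads that match several copies was not stated in any source at hand, so values of loci that share sequence may be split between them.

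**Figure D5:**
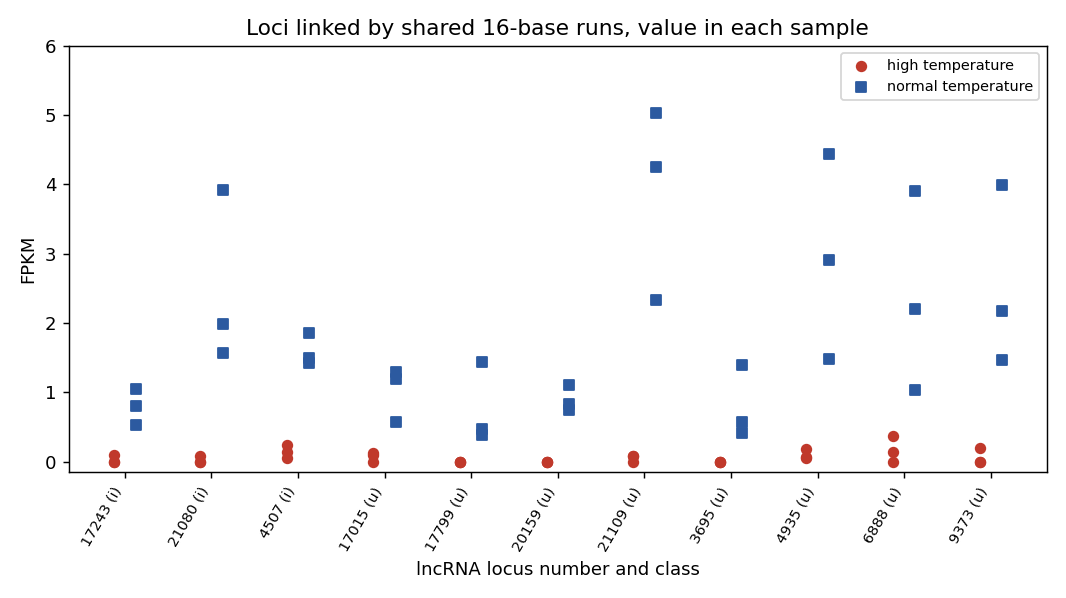
FPKM in each sample of the 11 lncRNA loci linked by shared 16-base runs, circles for high and squares for normal temperature (3 samples each), class in brackets. High temperature values reach at most 0.37, and every normal temperature value of a locus lies above its high temperature values.

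A different pair of members shared far more sequence. MSTRG.10950 (class o, chromosome 3, 21954099 to 21958238, plus strand) and MSTRG.13045 (class j, chromosome 4, 23983151 to 23987403, minus strand) had 45 listed fragments that were identical, which is 65.2% of those of the first and 69.2% of those of the second. Examples of the shared fragments are given, with no capitals.
MSTRG.10950 and MSTRG.13045, site listed for osa-miR5814: acaagcauuauuccuacuuucauu
MSTRG.10950 and MSTRG.13045, site listed for osa-miR5808: agccaucagcagacacaauuuggu
MSTRG.10950 was at 0.71, 0.71 and 1.16 FPKM in high and at 0.05, 0.56 and 0.38 FPKM in normal temperature. MSTRG.13045 was at 1.97, 1.77 and 1.76 FPKM in high and at 2.10, 2.44 and 2.52 FPKM in normal temperature. The groups lay apart in opposite directions, and neither difference passed (0.49 and -0.24, limma, adjusted p = 0.113 and 0.175). Because the 2 loci share sequence they may split reads, so both levels are uncertain. Their full sequences were not compared.

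MSTRG.19733, the locus with the clearest rise, shared 3 listed fragments with MSTRG.19732, an intergenic locus on the same strand of chromosome 8 (11374155 to 11376547). MSTRG.19732 was at 1.42, 1.80 and 1.35 FPKM in high and at 0.40, 0.60 and 0.44 FPKM in normal temperature, and rose (0.77, limma, adjusted p = 0.00426). MSTRG.16564 shared 1 of its 13 listed fragments with MSTRG.20338, an intergenic locus of chromosome 8 that fell (-1.05, limma, adjusted p = 0.00511). Shared fragments thus went with the same direction in one pair and opposite directions in the other. Among neighbours within 10 kb, the intronic loci MSTRG.15251 and MSTRG.15252 lay 1329 bases apart on chromosome 5. Neither passed, at 0.23 and 0.11 on the log2 scale (limma, adjusted p = 0.168 and 0.613).

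The authors' deposited table of microRNA pairings listed 1687 pairings with 65 of the 66 member loci. Of these, 1578 were with rice microRNAs, whose names start with osa. The sites per kilobase and seed shares that follow include the other pairings too. Listed sites per kilobase were alike in the classes, with medians of 13.2 in class j, 12.4 in class o and 14.2 in class i over loci with 1 row, against 12.2 in class u and 11.4 in class x. The seed was paired in full by Watson-Crick rules in 12.99% of class j, 16.5% of class o and 8.43% of class i pairings. In class u it was 9.78% and in class x 11.27%. These shares count pairings, so a site listed for several transcripts or microRNAs counts more than once. No member pairing was complete over the whole microRNA by Watson-Crick rules alone. Sites for osa-miR1436 were listed in 4 of 31 intronic loci (12.9%), in 1 of 20 of class j and in 1 of 15 of class o, against 9 of 353 intergenic (2.55%) and 0 of 111 antisense loci. Sites for osa-miR1439 were listed in 6 of 31 intronic loci (19.4%) and 4 of 20 class j loci (20%) and in 1 of 15 class o loci (6.67%), against 6.80% of intergenic and 1.80% of antisense loci. The counts for the 2 microRNAs are not separate. In the 4 intronic loci and the class o locus with an osa-miR1436 site, the osa-miR1439 site overlaps it in sequence. Loci with these sites differed in length, and the shares are not scaled to length. These counts were looked at after the sites had been seen and were not tested. A listed pairing is a prediction and holds no measurement of the microRNA.

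Of the intronic loci with an osa-miR1436 site, only MSTRG.14643 passed the temperature test. MSTRG.21360 was listed at 0 in all high samples and at 1.31, 0.86 and 0 FPKM in normal temperature, and MSTRG.14494 was above 0 in a single sample. MSTRG.15251 stood at 1.11, 1.11 and 1.18 FPKM in high and at 0.80, 1.01 and 0.68 FPKM in normal temperature, so its groups lay apart the other way.

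The best listed rice microRNA sites of 3 stranded loci with a row that changed are given to show how far pairing went, with capitals as above.
osa-miR2873b: uUGGACUUgagauuugguaug
MSTRG.19733 (class j): uUCacAaaaucuuaaguccaa
osa-miR5340: uGAUGACGuggaugaauuucaaa
MSTRG.16564 (class j): AuCgaaaCuuauccgcgucaucC
osa-miR5144-5p: uUCUUGUGcugcugaagagac
MSTRG.19658 (class i): UuGucuucagcagcgcaaUaa
The sites of MSTRG.19733 and MSTRG.19658 had 3 unpaired bases each and that of MSTRG.16564 had 4.

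The authors' deposited table of changed lncRNAs listed 59 rows, against 578 lncRNA rows in all. Of the 76 member rows it listed 6. It gave MSTRG.4507, MSTRG.18501 and MSTRG.19686 as down, and MSTRG.6562 and 2 rows of MSTRG.19733 as up, and no class o row. MSTRG.6562 and MSTRG.19686 did not pass here. MSTRG.6562 (class j) had 1 row at 0.25, 0.19 and 3.09 FPKM in high against 2.42, 0.13 and 0.18 FPKM in normal temperature, and another at 1.19, 0.69 and 2.33 FPKM against 1.27, 0.72 and 1.11 FPKM (limma, adjusted p = 0.891 and 0.605). High sample 3 was the highest in both. MSTRG.19686 (class j) was at 0.67, 0.58 and 0.39 FPKM in high and at 0.62, 1.74 and 1.16 FPKM in normal temperature (-0.46, limma, adjusted p = 0.151), with normal sample 1 among the high samples. Without that sample it passed at adjusted p = 0.0358.

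The authors' deposited table of starch metabolism paired lncRNAs with mRNAs by Pearson correlation, and 14 of its 149 pairs involved members, namely MSTRG.4507, MSTRG.18501 and MSTRG.19733. MSTRG.18501 was paired at 0.993 with LOC_Os06g12450, a starch synthase that lengthens starch chains, in the authors' deposited table. The same table gave it 0.998 with LOC_Os08g25734 and 0.997 with LOC_Os09g12660, both ADP-glucose pyrophosphorylases, which make the sugar donor of starch synthesis. It gave -0.996 with LOC_Os08g36900 and -0.982 with LOC_Os08g36910, both alpha-amylases, which cut starch. MSTRG.4507 had the same signs with the same 5 mRNAs in the authors' deposited table, from -0.982 to 0.990. MSTRG.19733 was negative with LOC_Os06g12450 (-0.997) and LOC_Os09g12660 (-0.991 and -0.990) in the authors' deposited table.

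The partner mRNAs separated by temperature as the lncRNAs did. LOC_Os06g12450 was at 42.4 ± 1.16 FPKM in high against 134.7 ± 1.56 FPKM in normal temperature (SD, n = 3), and LOC_Os08g25734 was at 436.8 ± 7.6 and 1438 ± 43.1 FPKM. LOC_Os09g12660 was at 56.7 ± 2.73 and 174.8 ± 9.22 FPKM. LOC_Os08g36900 was at 486.8 ± 12.9 FPKM in high against 150.3 ± 7.36 FPKM in normal temperature. The other alpha-amylase, LOC_Os08g36910, was low in both, at 0.883 ± 0.129 and 0.003 ± 0.006 FPKM. The samples fall into 2 temperature clusters of 3, so these coefficients largely describe the difference between the clusters, and a relation within the clusters was not tested.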

How the data were processed

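Ribosomal RNA was removed and the rest fragmented and read from both ends on an Illumina instrument, per the labels' protocols. StringTie 1.3.0, HISAT2 2.0.4, FastQC 0.10.1 and cutadapt 1.10 are named in the submitters' processing notes, with no roles. The authors deposited expression as FPKM with 2 decimals, per the file headers, and sums per sample were 365035 to 380742. No read counts are given, so no count model or interval was used. The score taken from the authors' deposited starch table is their Pearson correlation, per the file headers. Class, strand, position and length came from the deposited lncRNA table. The number of rows per locus matched between the tables, but rows of a locus were not matched 1 to 1 with lengths. Of the deposited microRNA pairings, 26 repeated lines were left out, 9004 pairings were used and empty lines were not used here.

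Rows with a mean of at least 0.5 FPKM were tested on log2(FPKM + 1) with limma 3.58.1 in R 4.3.3, with the prior variance as a trend on the mean, two-sided, with Benjamini-Hochberg adjustment at 0.05 over the 455 tested lncRNA rows. The scripts were tested on simulated data. The text names every row past the threshold, every member in the authors' deposited tables, the most abundant, longest and shortest rows and the largest changes per class. Loci sharing sequence and microRNA sites were chosen after values were seen. Members and lists were chosen with earlier results of these data known. Alternatives were other pseudocounts, filters, scalings and fits, a replicate block, and leaving out each sample; sums per locus were added after seeing the data.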

Additional observations from a re-analysis of the deposited data

How the results depend on the processing

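The 124 lncRNA rows that passed became 76 at a minimum mean of 1 FPKM, and 93 to 118 when each sample was left out in turn. For class j the 7 rows became 4 with 1 row per locus and 4 with FPKM summed per locus, the latter chosen after seeing the data, and 4 to 6 when each sample was left out, with 4 without normal sample 2. These class j totals include 1 row that fell without high sample 1 (row 1 of MSTRG.5602) and 1 without normal sample 1 (MSTRG.19686). For class o the 1 row became 0 to 1 when each sample was left out. Without high sample 1 that row was a rise, in row 3 of MSTRG.128, and the fall of MSTRG.13723 was lost. For class i the 7 rows became 3 at a minimum mean of 1 FPKM, and 5 to 6 when each sample was left out. The labels' replicate numbers were not shown to pair samples: same-numbered samples had correlations of 0.018, 0.311 and -0.009 over lncRNA rows. With a replicate block, 114 lncRNA rows passed, with 6 of class j, 1 of class o and 4 of class i. MSTRG.5602 row 2 (limma, adjusted p = 0.0571), MSTRG.6108 (limma, adjusted p = 0.061), MSTRG.14643 and MSTRG.19658 lost their calls with that block. The median level of class o was 1.1 FPKM with 1 row per locus, against 2.22 FPKM. As coefficients of variation over all rows the median spreads were 42.8% (class j), 38.2% (class o) and 46.2% (class i). Over rows with a mean of at least 0.5 FPKM they were 36.9%, 37.9% and 35.4%, so the order turned. No named row reversed its direction while past the threshold. The median over all tested lncRNA rows was -0.10 as deposited, -0.02 with trimmed-mean scaling, -0.04 when rescaled without the 100 most abundant rows and -0.12 after quantile normalization. MSTRG.19658 lost its call with trimmed-mean scaling (limma, adjusted p = 0.0689), when rescaled (adjusted p = 0.0617) and with no filter (adjusted p = 0.0509), and MSTRG.14643 when rescaled (adjusted p = 0.0501). The cause was not tested. Depth is unknown, so low rows carry an unknown counting error.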
